A study of Mus musculus with 8 samples.

Results

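The genes described here are 36 nuclear receptor genes, taken from a list by name out of 21627 protein-coding genes, with no measured value used to choose them. They are the thyroid hormone receptors Thra and Thrb, the peroxisome proliferator-activated receptors Ppara, Ppard and Pparg, the vitamin D receptor Vdr, the oxysterol receptor Nr1h2, the bile acid receptor Nr1h4 and the xenobiotic receptors Nr1i2 and Nr1i3. They also take in the clock receptors Nr1d1, Nr1d2, Rora and Rorb, the steroid receptors Esr1, Esr2, Nr3c1, Nr3c2 and Pgr, and the estrogen-related receptors Esrra, Esrrb and Esrrg. The remaining members are the orphan receptors Hnf4a, Hnf4g, Nr2c1, Nr2c2, Nr2e1, Nr2e3, Nr2f1, Nr2f2, Nr2f6, Nr5a1, Nr5a2, Nr6a1, Nr0b1 and Nr0b2. Each was measured at its promoters (1 kb on each side of either annotated gene end) and over its window, meaning the gene and a 20 kb flank at both ends.

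The data are peak lists from CUT&RUN, in which an antibody brings a protein A-MNase fusion to marked nucleosomes and the fragments it cuts out are read by sequencing. Haematopoietic stem cells (HSCs) were isolated by flow sorting from mouse marrow with the gate Lin-cKit+Sca1+CD48-CD150+. The RXRKO cells came from C57BL/6 mice that the labels give as VavCre+ with both alleles of Rxra and of Rxrb deleted, floxed before recombination. The WT cells came from C57BL/6 mice with the floxed Rxra and Rxrb alleles (Rxrabfl/fl), for which the genotype label writes VavCre+ and the design text gives no Cre. A difference between the genotypes therefore cannot be told apart from a difference in Cre. Vav-Cre recombines floxed alleles in blood cells, and the peak lists hold no direct check that the floxed parts of Rxra and Rxrb were lost. Mice were aged about 10 months, each pool combined 4 or 5 of them, and 7500 HSCs entered each assay. H3K4me1 was mapped in 2 RXRKO and 2 WT libraries, and H3K4me3 and H3K27ac in 1 RXRKO and 1 WT library each. The labels do not say whether replicate libraries came from separate pools of mice, so p-values measure only the spread between these libraries.

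Nuclear receptors are transcription factors that carry a zinc-finger DNA-binding domain and, in most cases, a pocket for a small lipid-soluble ligand. The thyroid hormone, vitamin D, PPAR, oxysterol, bile acid and xenobiotic receptors bind DNA as partners of a retinoid X receptor, the steroid receptors bind as pairs of themselves, and many orphan receptors bind alone or as pairs of themselves. H3K4me3 marks active or poised gene starts, H3K27ac marks active starts and enhancers, and H3K4me1 marks enhancers whether or not they are acetylated.

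The 4 H3K4me1 lists held 147698 and 165128 peaks in RXRKO against 149377 and 159713 in WT. RXRKO replicate 2 stood apart, with 133.3 Mb under peaks against 109.8 to 117.8 Mb in the other H3K4me1 libraries, and values without it are given below where they differ by over 1.5 times. The H3K4me3 lists held 58136 peaks in RXRKO against 47835 in WT, and the H3K27ac lists held 64849 in RXRKO against 74287 in WT. Reads were not used here, so the depth is unknown and a gene with no peak is one without a call at the authors' threshold. All 14 HSC marker genes had an H3K4me3 promoter peak in both genotypes, against 65.6% of all genes. The same held for 1 of 5 mature T and NK cell genes, 0 of 4 B cell genes, 1 of 6 granulocyte and monocyte genes, 3 of 5 erythroid genes, 4 of 5 stromal and endothelial genes and 1 of 6 genes silent in blood. An H3K27ac promoter peak in both genotypes was called at 10 of the 14 HSC genes, against 56.2% of all genes. In the other lists, in the same order, the H3K27ac counts were 1, 0, 2, 3, 4 and 1. In a mixed sample, fewer cells with a mark and less mark per cell cannot be told apart.

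RefSeq (GRCm38.p6) listed 45 starts for 32 of the 36 genes, and 10 genes had more than 1. Nr3c1, Hnf4g, Thra and Nr5a1 had no listed start and were read at their gene ends. Of the 45 starts, 24 (53.3%) had H3K4me3 and H3K27ac peaks within 1 kb in both genotypes, against 55.5% of all 21044 listed starts. Another 8 (17.8%) had H3K4me3 in both genotypes without H3K27ac in both, against 10.6% of all starts, and at 13 (28.9%, against 33.1%) neither mark was called in both genotypes. The 250 bases before the start differed between these states in CpG content, with a median of 14 CpG in the starts with both marks, 14.5 in those with H3K4me3 alone and 3 in those with neither. Over all listed starts the medians of the same 3 states were 16, 14 and 2. The following 250-base stretches before a start are shown because they span much of this range, with each CpG in capitals, 5′ to 3′ on the gene's strand.
Thrb start 1: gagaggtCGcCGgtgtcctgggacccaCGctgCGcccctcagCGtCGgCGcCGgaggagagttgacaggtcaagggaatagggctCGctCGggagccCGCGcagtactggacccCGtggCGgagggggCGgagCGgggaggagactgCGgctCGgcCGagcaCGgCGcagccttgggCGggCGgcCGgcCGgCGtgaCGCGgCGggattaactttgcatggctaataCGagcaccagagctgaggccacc
Thrb start 2: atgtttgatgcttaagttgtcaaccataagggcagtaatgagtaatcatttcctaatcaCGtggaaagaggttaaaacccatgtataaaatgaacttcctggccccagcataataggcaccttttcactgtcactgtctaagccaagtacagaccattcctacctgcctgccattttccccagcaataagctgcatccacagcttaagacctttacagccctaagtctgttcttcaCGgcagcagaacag
Pparg start 1: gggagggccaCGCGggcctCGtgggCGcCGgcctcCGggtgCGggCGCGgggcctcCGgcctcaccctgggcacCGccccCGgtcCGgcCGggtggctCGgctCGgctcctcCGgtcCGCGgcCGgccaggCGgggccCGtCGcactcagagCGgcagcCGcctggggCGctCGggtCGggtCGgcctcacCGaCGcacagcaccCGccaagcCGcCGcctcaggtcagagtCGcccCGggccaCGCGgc
Pparg start 3: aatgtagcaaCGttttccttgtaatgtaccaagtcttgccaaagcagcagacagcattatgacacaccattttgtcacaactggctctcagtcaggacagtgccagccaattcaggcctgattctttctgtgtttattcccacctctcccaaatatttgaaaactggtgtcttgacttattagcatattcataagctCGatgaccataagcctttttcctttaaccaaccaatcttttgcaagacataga
Nr2f6 start: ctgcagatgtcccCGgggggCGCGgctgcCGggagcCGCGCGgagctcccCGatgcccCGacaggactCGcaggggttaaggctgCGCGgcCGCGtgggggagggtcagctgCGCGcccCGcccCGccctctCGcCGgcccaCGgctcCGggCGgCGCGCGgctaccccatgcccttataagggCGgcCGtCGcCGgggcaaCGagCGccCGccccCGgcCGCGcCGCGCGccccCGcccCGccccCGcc

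Thrb start 1 (plus strand, bases chr14:17660710-17660959) held 30 CpG and Thrb start 2 (plus strand, chr14:17981394-17981643) held 2, and both carried H3K4me3 and H3K27ac in both genotypes. At Thrb start 1, H3K4me3 peaks covered 1680 bp in RXRKO and 1718 bp in WT, and H3K27ac peaks covered 1099 bp in RXRKO and 1461 bp in WT. At Thrb start 2, H3K4me3 peaks covered 1137 bp in RXRKO and 833 bp in WT, and H3K27ac peaks covered 1181 bp in RXRKO and 837 bp in WT. Pparg start 1 (plus strand, chr6:115360894-115361143) held 38 CpG and carried both marks in both genotypes, with H3K4me3 over 1356 bp in RXRKO and 1359 bp in WT and H3K27ac over 730 bp in RXRKO and 1087 bp in WT. Pparg start 3 (plus strand, chr6:115421816-115422065) held 2 CpG and had no H3K4me3 or H3K27ac peak in either genotype. Pparg encodes a fatty acid-sensing receptor best known from fat cells. The Nr2f6 start (minus strand, chr8:71381953-71382202) held 42 CpG, the most of the 45, and had H3K4me3 over 1665 bp in RXRKO and 1648 bp in WT with no H3K27ac peak in either. Nr2f6 is an orphan receptor of the COUP-TF family. Among these 5 stretches, those with many CpG all lay at starts with H3K4me3 but not all with H3K27ac, and the low-CpG Thrb start 2 carried both.

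Short motifs were counted on both strands in the same 250 bases, without regard to overlap with other motifs. The receptor half-site AGGTCA (or TGACCT) was in 8 of 45 member starts (17.8%) and in 12.8% of all starts. These were starts of Nr5a2, Nr1h4, Thrb, Nr1d2, Nr6a1, Nr0b1 and 2 of Pparg. Of the 8, 4 carried both marks (Thrb, Nr1d2 and 2 of Pparg) and 4 carried neither. The GC box GGGCGG was in 40.0% of member starts and 43.0% of all starts, and CCAAT in 40.0% of member starts and 35.6% of all. The E-box CACGTG was in 8.9% of member starts and 6.7% of all, TGACGTCA in 2.2% of member starts and 1.94% of all, and the ETS motif CCGGAAGT in 2.2% of member starts and 3.83% of all. These shares lay near each other. The only member start with CCGGAAGT or its reverse complement ACTTCCGG was that of Nr1h2, which held 3 copies (minus strand, chr7:44553966-44554215). The Nr1d2 start held 1 AGGTCA (minus strand, chr14:18239107-18239356). Both are shown because they carry the motifs counted, in capitals, at starts with both marks.
Nr1h2 start: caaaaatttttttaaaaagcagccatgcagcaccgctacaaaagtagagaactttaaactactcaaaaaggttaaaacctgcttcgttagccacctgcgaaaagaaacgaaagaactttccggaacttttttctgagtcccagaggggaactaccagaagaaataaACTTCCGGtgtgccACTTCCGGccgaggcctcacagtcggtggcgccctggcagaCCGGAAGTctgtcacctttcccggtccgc
Nr1d2 start: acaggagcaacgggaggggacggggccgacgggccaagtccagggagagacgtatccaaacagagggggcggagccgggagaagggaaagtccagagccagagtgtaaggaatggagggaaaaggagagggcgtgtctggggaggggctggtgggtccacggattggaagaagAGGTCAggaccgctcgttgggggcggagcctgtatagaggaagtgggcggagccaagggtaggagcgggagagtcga

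**Figure D1:**
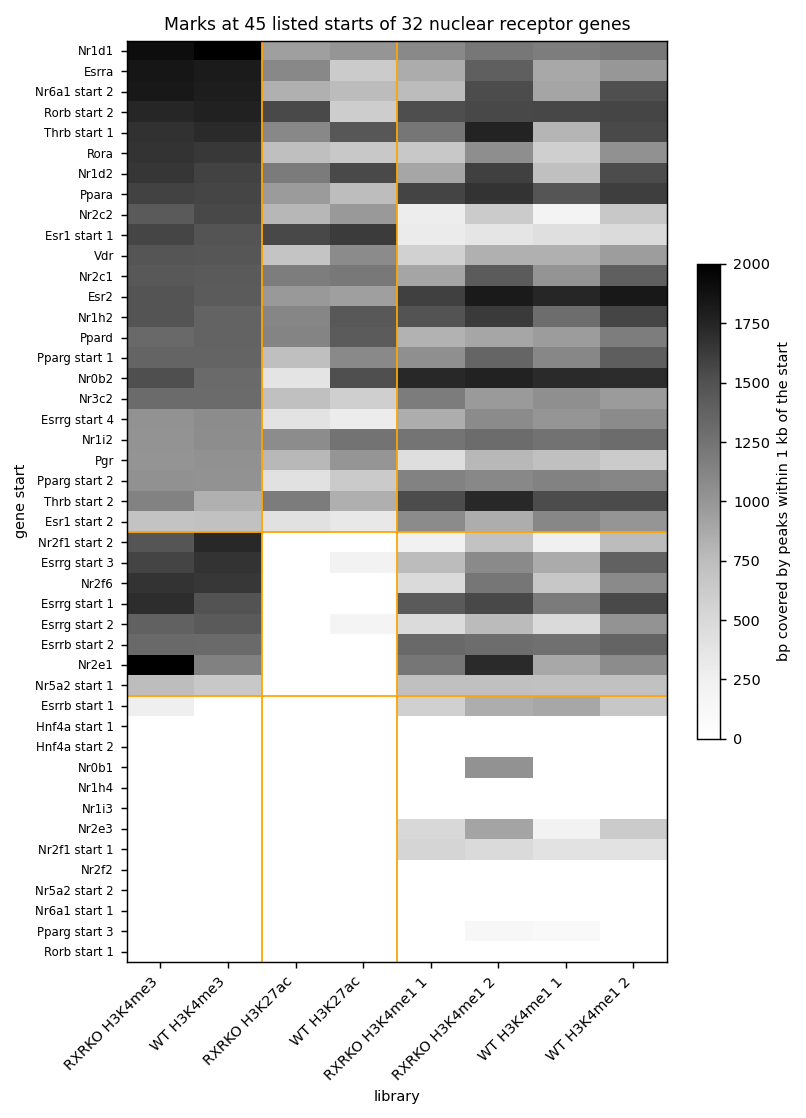
Base pairs covered by called peaks within 1 kb of each of 45 listed starts (rows) in the 8 libraries (columns), from 0 (white) to 2000 (black). The top block of 24 starts had H3K4me3 and H3K27ac in both genotypes, the middle block of 8 had H3K4me3 without H3K27ac in both, and in the bottom block of 13 neither was called in both, with H3K4me1 at some of them.

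By the promoter rule, 29 of 36 members had an H3K4me3 promoter peak in both genotypes, 1 in RXRKO alone and 0 in WT alone, against 65.6%, 1.45% and 0.398% of all genes. An H3K27ac promoter peak in both genotypes was called at 22 members, in RXRKO alone at 0 and in WT alone at 1, against 56.2%, 1.33% and 4.74% of all genes. Both marks stood in both genotypes at 22 members, against 55.0% of all genes. H3K4me3 in both genotypes with no H3K27ac in either was found at 6 members (16.7%), against 6.01% of all genes. They were Esrrg, Nr2e1, Nr2f1, Hnf4g, Nr2f2 and Nr2f6. The Nr2f2 call lay at its 3′ end (776 bp in RXRKO and 837 bp in WT), and its listed start had neither mark. Esrrg had H3K27ac in both genotypes at another listed start, inside the gene. The 6 are therefore gene-end calls and not all states of a start. By this rule 6 members had no promoter peak of either mark, namely Nr5a2, Nr1i3, Nr3c1, Nr5a1, Hnf4a and Nr0b1. That state held for 30.9% of all genes. Nr5a2 nonetheless had H3K4me3 at a listed start inside the gene, over 745 bp in RXRKO and 646 bp in WT. Nr3c1 and Nr5a1 had no listed start, so a promoter inside those genes would be missed. Each mark had 1 library per genotype, so these are counts without a test.

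The promoter call differed between genotypes at Esrrb and Pgr alone. Esrrb encodes an estrogen-related receptor known from pluripotent cells. Its H3K4me3 peak covered 251 bp of the promoter in RXRKO and 0 bp in WT, while its second listed start had H3K4me3 over 1324 bp in RXRKO and 1319 bp in WT. Pgr encodes the progesterone receptor. Its H3K27ac peak overlapped the promoter at the annotated gene end by 0 bp in RXRKO and 73 bp in WT, but within 1 kb of its listed start H3K27ac covered 778 bp in RXRKO and 1007 bp in WT. At a listed start of each gene, then, the mark was called in both genotypes.

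Among the receptors that pair with a retinoid X receptor, Thra, Thrb, Ppara, Ppard, Pparg, Nr1h2, Vdr and Nr1i2 had both marks at a promoter in both genotypes. Ppara, a receptor that drives fatty acid oxidation, had H3K4me3 over 1581 bp in RXRKO and 1569 bp in WT at its start, and H3K27ac over 968 bp in RXRKO and 745 bp in WT. Nr1h2, an oxysterol receptor that raises cholesterol export, had H3K27ac over 1113 bp in RXRKO and 1452 bp in WT. Vdr had H3K27ac over 687 bp in RXRKO and 1071 bp in WT, and Nr1i2, the pregnane X receptor of drug metabolism, over 1067 bp in RXRKO and 1248 bp in WT. H3K27ac at these starts was broader in WT at Nr1h2, Vdr and Nr1i2 and broader in RXRKO at Ppara, with no replicate to give a spread. Nr1h4 and Nr1i3, receptors best known from liver, had no H3K4me3 or H3K27ac peak at their listed starts in either genotype. The promoter call of Nr1h4 came from its 3′ end, where an H3K4me3 peak covered 1053 bp in RXRKO and 1013 bp in WT.

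All 4 clock receptors had both marks in both genotypes. Nr1d1 and Nr1d2 repress the core clock gene Arntl, and Rora and Rorb activate the same response element. Nr1d1 had H3K4me3 over 1901 bp in RXRKO and 1998 bp in WT, and H3K27ac over 940 bp in RXRKO and 1002 bp in WT. Thra and Nr1d1 overlap at their ends on opposite strands, so their windows share peaks. Rora had H3K27ac over 732 bp in RXRKO and 644 bp in WT. Rorb start 2 had H3K27ac over 1545 bp in RXRKO and 602 bp in WT, while Rorb start 1 had no H3K4me3 or H3K27ac peak. The highest H3K27ac fold at Rorb start 2 (peak height over local background) was 3.74 in RXRKO and 4.67 in WT.

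Among the steroid receptors, Esr1 and Esr2, the estrogen receptors, and Nr3c2, the mineralocorticoid receptor, had both marks at their promoters. Esr1 start 1 had H3K27ac over 1551 bp in RXRKO and 1625 bp in WT, and Esr1 start 2 over 410 bp in RXRKO and 331 bp in WT. Nr3c1, the glucocorticoid receptor, had no H3K4me3 or H3K27ac peak at either gene end. Inside the Nr3c1 gene, 1 broad region of 3194 bp was under H3K4me3 over 3194 bp in RXRKO and 3045 bp in WT, with H3K27ac over 1303 bp in RXRKO and 2226 bp in WT. That Nr3c1 region lies outside the promoter windows and so gave no promoter call. With no listed start for Nr3c1, whether the region holds a start of the gene was not tested. Esrra, an estrogen-related receptor that drives mitochondrial genes, had H3K27ac over 1097 bp in RXRKO and 623 bp in WT. The highest H3K27ac fold at that start was lower in RXRKO (5.83) than in WT (10.22). Over the whole Esrra window H3K27ac covered 3736 bp in RXRKO and 4481 bp in WT. Esrrg had H3K4me3 at all 4 listed starts, and H3K27ac in both genotypes at start 4 alone, over 389 bp in RXRKO and 295 bp in WT. At Esrrg starts 2 and 3, H3K27ac covered 0 bp in RXRKO and 175 and 212 bp in WT.

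Among the orphan receptors, Nr2c1 and Nr2c2, the testicular receptors that in mouse erythroid cells repress embryonic globin genes, had both marks at their starts, as did Nr6a1 at start 2 and Nr0b2, a receptor without a DNA-binding domain. Nr0b2 had H3K27ac over 380 bp in RXRKO and 1513 bp in WT, and Nr2c2 over 789 bp in RXRKO and 984 bp in WT. Nr2e1, a regulator of neural stem cells, had H3K4me3 over 2001 bp in RXRKO and 1146 bp in WT without H3K27ac, and Nr2f1 start 2 had H3K4me3 over 1474 bp in RXRKO and 1728 bp in WT without H3K27ac. Nr2f2 had no peak of either mark at its listed start, and its H3K4me3 lay inside the gene and on both sides of it. The H3K4me3 and H3K27ac peaks that gave Nr2e3, a photoreceptor gene, its promoter call lay at its 3′ end. Hnf4g, a gut and liver receptor, had a single H3K4me3 region in its whole window, over 1200 bp in RXRKO and 782 bp in WT. Hnf4a had no peak of either mark at its 2 listed starts, but a region within the gene (chr2:163551755-163553264) had H3K4me3 over 876 bp in RXRKO and 1510 bp in WT, with H3K27ac over 1203 bp in RXRKO and 1219 bp in WT. Nr5a1, which directs steroid-producing tissues, had H3K4me3 within the gene (chr2:38710235-38712440) over 2015 bp in RXRKO and 2194 bp in WT, with no H3K27ac. Nr5a2 had H3K4me3 at start 1 over 745 bp in RXRKO and 646 bp in WT. Nr0b1, an X-linked receptor of the adrenal and gonads, had 1 peak in its window across all 8 libraries, an H3K4me1 peak in RXRKO replicate 2.

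Levels between genes were compared as the share of the window under peaks. The 5 members with the largest H3K27ac share, by the mean of the genotypes, were Nr1d1 with 17.0% in RXRKO and 17.4% in WT, Thra with 12.1% in RXRKO and 14.1% in WT, Nr0b2 with 9.39% in RXRKO and 10.8% in WT, Ppard with 8.41% in RXRKO and 10.0% in WT, and Vdr with 9.05% in RXRKO and 8.04% in WT. Nr1d1 and Thra led in both genotypes, whereas in WT Vdr (8.04%) lay below Ppard and also below Esrra (8.77%) and Nr1h2 (8.48%). Peaks of neighbouring genes fall into these windows. Of the H3K27ac in the Nr1d1 window (8066 bp in RXRKO and 8272 bp in WT), only 380 bp in RXRKO and 379 bp in WT lay within the Nr1d1 gene itself, and the window also holds ends of Thra and Msl1. The Nr0b2 window holds ends of Nudc and Gpatch3, and the Vdr window an end of Hdac7. At the other end, Nr0b1, Hnf4g, Nr2e1 and Nr2f2 had no H3K27ac peak in their windows in either genotype, and Nr2f1 had 0 bp in RXRKO and 313 bp in WT.

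**Figure D2:**
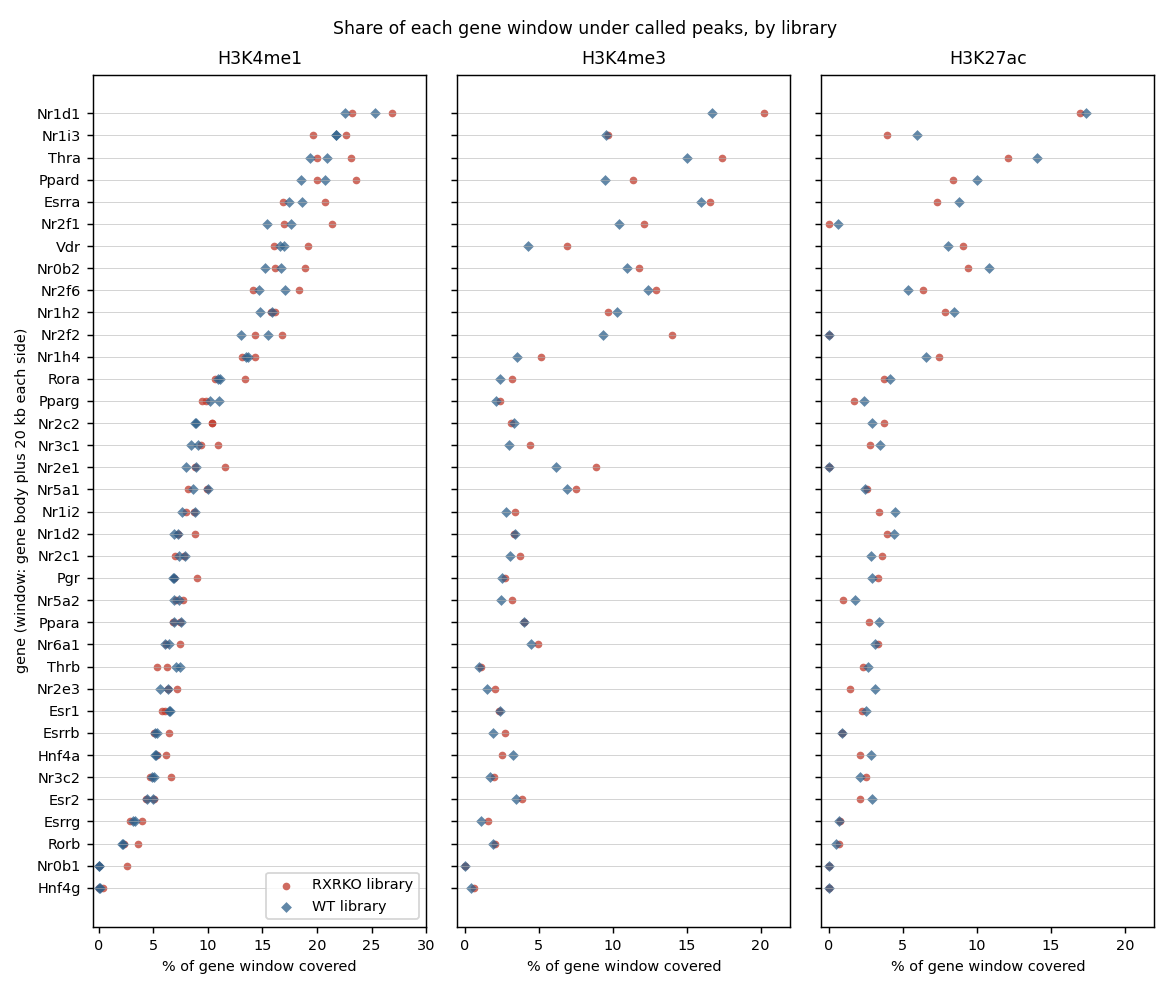
Percent of each gene window (gene body plus 20 kb each side) under called peaks, for 36 genes and 3 marks, with 1 point per library (RXRKO circles, WT diamonds). Genes with a high H3K4me1 share mostly had high shares of the other marks, but Nr2f1, Nr2f2 and Nr2e1 had H3K4me3 and almost no H3K27ac.

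No member's H3K4me1 passed the test between RXRKO and WT. The test was limma on log2 of the covered length plus 1000 bp, centred on each library's median, over the 17756 genes that averaged 1000 bp or more, with Benjamini-Hochberg adjustment over all of them. It called 0 of the 34 members tested and 0 of 17756 genes (0.0% higher and 0.0% lower), with the lowest adjusted p at 0.126. Nr0b1 and Hnf4g fell below the length filter. At an unadjusted p under 0.05, 1 member (Rorb) was higher in RXRKO and 3 (Thrb, Pparg and Esr1) were lower, against 3.18% higher and 2.74% lower over all genes. Of the 34 members, 19 were above 0 and 15 below, with a median log2 difference of 0.02 against -0.004 over all genes tested. Both RXRKO libraries lay above both WT libraries at 12 of the 34 members, against 15.7% of all genes, and below them at 8, against 17.6%. As shares of the members, these 2 counts lay above the shares of all genes, the first more clearly. No test of the list was made, so this is description alone.

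**Figure D3:**
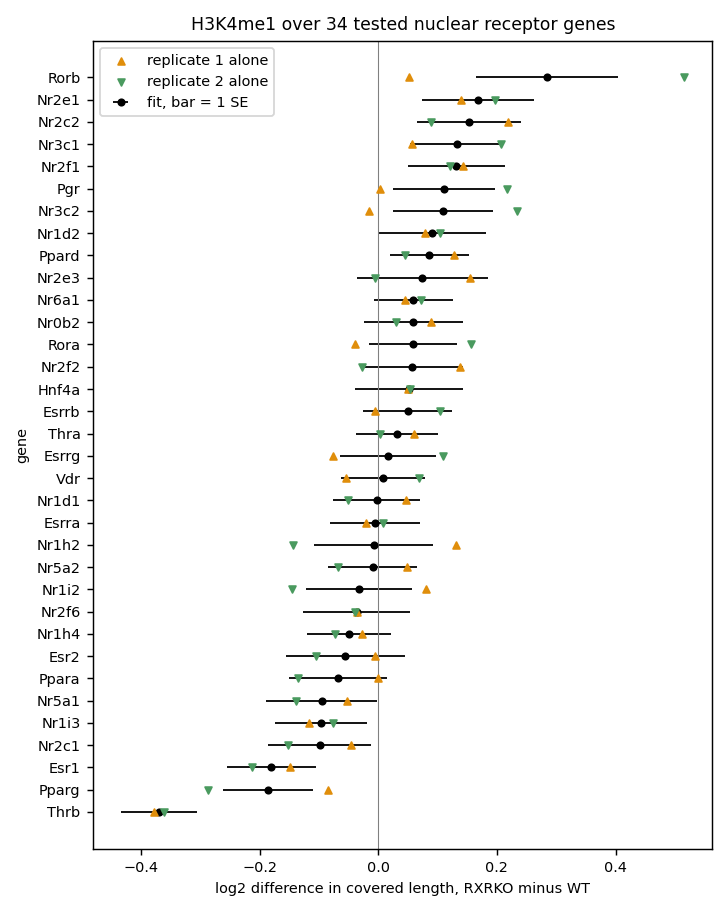
H3K4me1 log2 difference in covered length, RXRKO minus WT, for the 34 tested genes, with the fitted value (point, bar 1 SE) and the values within replicate 1 and replicate 2 (triangles). Thrb was the lowest at -0.37 and its within-replicate values were close together, while those of Rorb lay far apart.

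Thrb, the thyroid hormone receptor beta gene, had the largest H3K4me1 difference of the members. H3K4me1 peaks covered 22520 and 26503 bp of its window in the RXRKO libraries, against 29904 and 31217 bp in the WT libraries. Both RXRKO values lay below both WT values, although RXRKO replicate 2 had the most H3K4me1 under peaks of all 4 libraries. The log2 difference was -0.37 (SE 0.06, limma adjusted p = 0.126), the 21st smallest p of 17756 genes. It was -0.38 within replicate 1 and -0.36 within replicate 2. With replicate as a block the limma adjusted p of Thrb was 0.077, and that fit called 0 members, against 0.0113% of all genes higher and 0.0% lower. Thrb passed the threshold under 2 other settings, with limma adjusted p = 0.00161 without the length filter and 0.0413 without WT replicate 1, and over all the settings tried the adjusted p ran up to 1. Those fits called 204 of 21627 and 77 of 17788 genes, against 0 of 17756. Without centring on the library medians the difference was -0.31.

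The longest stretches of Thrb with H3K4me1 in WT alone lay inside the gene, away from its starts. Of the bases under an H3K4me1 peak in any library, 4495 bp (12.1%) were covered in both WT libraries and neither RXRKO library, and 409 bp (1.1%) in both RXRKO libraries and neither WT library. Thrb was singled out for its low H3K4me1 in RXRKO, so this excess restates that choice, and such shares were not counted over all genes. The longest WT-covered stretches were chr14:17674929-17675759 (831 bp), chr14:17735034-17735802 (769 bp) and chr14:17923257-17923759 (503 bp), all within the gene. None of these 3 stretches overlapped an H3K4me3 or H3K27ac peak. A shorter WT-covered stretch (chr14:17688242-17688515) held H3K27ac over 176 bp in RXRKO and 0 bp in WT. At both Thrb starts H3K4me1 was called in all 4 libraries. H3K4me3 over the Thrb window was 4594 bp in RXRKO and 4139 bp in WT, and H3K27ac was 9856 bp in RXRKO and 11115 bp in WT, log2 differences of 0.04 and -0.09 with no test. An H3K27ac peak called in RXRKO alone (chr14:17784244-17784944) lay within the gene, where H3K4me1 was called over its 701 bp in all 4 libraries.

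**Figure D4:**
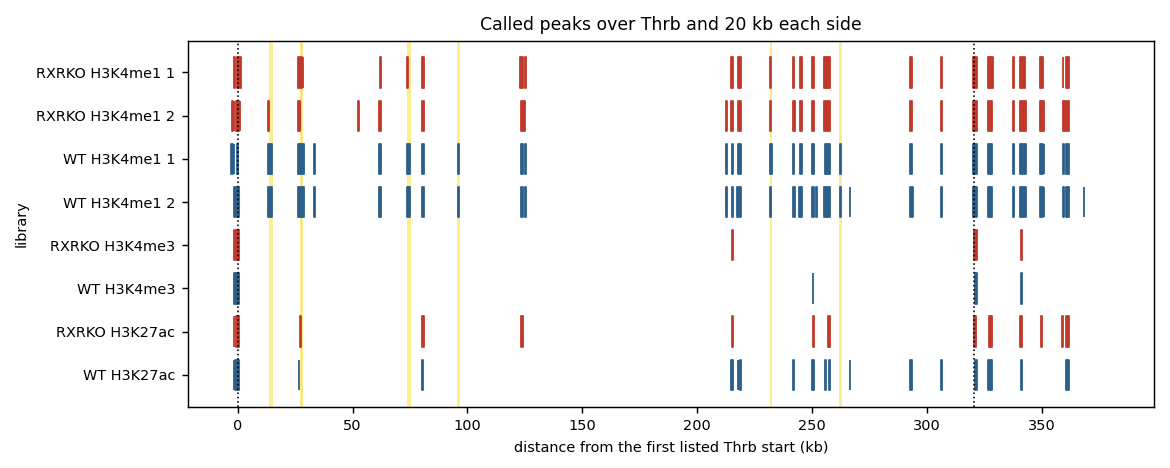
Called peaks over Thrb and 20 kb on each side, by distance from the first listed start (RXRKO libraries in red, WT in blue, dotted lines at the 2 listed starts). Yellow bands show stretches of at least 200 bp with H3K4me1 in both WT libraries and neither RXRKO library, the longest being 831 bp, and are drawn wider than scale so that they can be seen.

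The other members with low H3K4me1 values in RXRKO were Pparg, Esr1 and Nr2c1. Pparg had 16040 and 16681 bp in RXRKO against 17264 and 18666 bp in WT, with no overlap (log2 difference -0.19, SE 0.08, limma adjusted p = 0.803). Without RXRKO replicate 2 the Pparg difference was -0.10. Esr1 had 25178 and 26366 bp in RXRKO against 28328 and 27906 bp in WT, again with no overlap (log2 difference -0.18, SE 0.08, limma adjusted p = 0.804), and -0.10 without RXRKO replicate 2. When only peaks of at least 4-fold by the authors' fold were kept, both values were near 0 (Pparg 0.02, Esr1 0.00). Nr2c1 had 6298 and 7001 bp in RXRKO against 6615 and 7105 bp in WT (log2 difference -0.10, limma adjusted p = 0.998), and -0.06 without RXRKO replicate 2. These lengths overlap between the genotypes until each library is centred.

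The highest H3K4me1 values in RXRKO were those of Rorb, Nr2e1, Nr2c2 and Nr3c1. Rorb had 5165 and 7992 bp in RXRKO against 5009 and 4729 bp in WT (log2 difference 0.28, SE 0.12, limma adjusted p = 0.808). This value came mostly from RXRKO replicate 2, since the difference was 0.05 within replicate 1, 0.52 within replicate 2, 0.12 with RXRKO replicate 2 left out and 0.45 with RXRKO replicate 1 left out. Nr2e1 had 5442 and 7141 bp in RXRKO against 4914 and 5470 bp in WT (log2 difference 0.17, limma adjusted p = 0.925), and 0.11 without RXRKO replicate 2. Nr2c2 had 12646 and 12685 bp in RXRKO against 10855 and 10732 bp in WT (log2 difference 0.15, limma adjusted p = 0.925). Both RXRKO libraries of Nr2c2 lay above both WT libraries. On the centred scale its difference was 0.22 within replicate 1 and 0.09 within replicate 2, and leaving out RXRKO replicate 1 gave 0.05 while leaving out RXRKO replicate 2 gave 0.26. The Nr2c2 window holds an end of Fgd5, an HSC marker gene. Nr3c1 had 14019 and 16194 bp in RXRKO against 13588 and 12573 bp in WT (log2 difference 0.13, limma adjusted p = 0.927), with 0.22 without WT replicate 1 and 0.05 without WT replicate 2. The other 26 members tested lay between -0.10 (Nr1i3) and 0.13 (Nr2f1).

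Merging overlapping H3K4me1 peaks of the 4 libraries gave 678 regions in the members' windows. Of these, 441 (65.04%) were called in all 4 libraries, against 61.84% of all regions of the genome. Peaks stood in both RXRKO libraries but neither WT library at 17 (2.51%, against 2.17% of all regions), and in both WT but neither RXRKO library at 17 (2.51%, against 1.94%). The members' regions thus split between genotypes at shares near those of the genome. The 3 RXRKO-called regions with the highest -log10 q lay within Pgr (chr9:8927344-8928088), Nr1d2 (chr14:18224055-18224865) and Rora (chr9:68944012-68944526). In the Pgr region, H3K4me1 covered 370 and 745 bp in RXRKO and 0 bp in both WT libraries, without H3K4me3 or H3K27ac. The Rora region also had H3K27ac over 184 bp in RXRKO and 0 bp in WT. The 3 WT-called regions lay within Thrb (chr14:17923193-17923817 and chr14:17756721-17757125) and Esr1 (chr10:4922239-4922453). None of those 3 had H3K4me3 or H3K27ac in either genotype.

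H3K27ac had 306 regions in the members' windows, of which 186 were shared, 41 (13.4%) were RXRKO-only and 79 (25.8%) WT-only. Over the genome the RXRKO-only share was 13.0% and the WT-only share 23.9%, with more peaks in the WT list. The RXRKO-only peaks with the highest -log10 q lay within Nr1h4 (chr10:89527110-89527526), Esrrg (chr1:187910779-187911075 and chr1:187803082-187803813), Thrb (described above) and Ppard (chr17:28290789-28291245). H3K4me1 was called in all 4 libraries at each of these except the first Esrrg region, which had none in WT replicate 1. The WT-only peaks with the highest -log10 q lay within Esr1 (chr10:4910377-4910890), Esrrg (chr1:188036035-188036834), Ppard (chr17:28294464-28295089), Nr1h4 (chr10:89461927-89462378) and Thra (chr11:98741826-98742440). At the Esr1 peak, H3K27ac covered 0 bp in RXRKO and 514 bp in WT, H3K4me3 covered 302 bp in RXRKO and 514 bp in WT, and H3K4me1 was called in all 4 libraries. At the Thra peak H3K4me3 covered all 615 bp in both genotypes and H3K4me1 was called in no library. Esrrg, Ppard and Nr1h4 each held both RXRKO-only and WT-only acetylated peaks.

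No member passed a log2 difference of 1 in H3K27ac over its window, where 1000 bp was added to each length and the median over all genes set to 0. The count was 0 of 31 members measured, against 0.227% of genes higher and 0.259% lower in RXRKO. In all, 13 members were above 0 and 18 below, with a median of -0.06 against 0 for all 15445 genes measured. The lowest were Nr2e3 with 823 bp in RXRKO and 1804 bp in WT (log2 difference -0.55), Nr5a2 with 1475 bp in RXRKO and 2787 bp in WT (-0.54) and Nr1i3 with 1755 bp in RXRKO and 2690 bp in WT (-0.35). At Nr1i3 none of that acetylation lay within the gene, whose window holds ends of 5 other genes. The Nr2e3 gene itself held 0 bp in RXRKO and 320 bp in WT, and its window holds ends of Myo9a and Thsd4. Nr5a2 encodes a receptor that regulates bile acid and cholesterol genes in liver, and its body held 1003 bp in RXRKO and 2295 bp in WT. The highest was Rorb, with 1545 bp in RXRKO and 1000 bp in WT (0.42). Nr2c2 had 4520 bp in RXRKO and 3567 bp in WT (0.35). Nr2c1 had 3227 bp in RXRKO and 2538 bp in WT (0.33). These are called lengths, and the highest H3K27ac fold at the starts was lower in RXRKO. It was 3.74 in RXRKO and 4.67 in WT at Rorb start 2, and 3.43 and 4.4 at Nr2c2. At Nr2c1 it was 4.16 in RXRKO and 4.68 in WT. With only peaks of at least 4-fold, the H3K27ac promoter calls of Rorb and Nr2c2 stood in WT alone.

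For H3K4me3 on the same scale, 0 of 34 members measured passed a log2 difference of 1, against 0.132% of genes higher and 0.024% lower. In the windows, 232 H3K4me3 regions were counted, of which 165 were shared, 55 (23.7%) RXRKO-only and 12 (5.2%) WT-only, against 22.2% RXRKO-only and 4.2% WT-only over the genome, with more peaks in the RXRKO list. After centring, 24 members were above 0 and 10 below, with a median of 0.09 against 0 over 16645 genes. Without centring, 29 were above and 5 below, since the median of all genes was then 0.08. The highest were Vdr with 6488 bp in RXRKO and 4043 bp in WT (log2 difference 0.49), Nr2f2 with 7648 bp in RXRKO and 5136 bp in WT (0.42) and Nr3c1 with 6601 bp in RXRKO and 4437 bp in WT (0.40). At Vdr the start itself was near equal (1470 bp in RXRKO and 1468 bp in WT). Regions called in RXRKO alone lay within the gene and beyond its 3′ end. Vdr regions called in both genotypes were also broader in RXRKO. Examples are 920 bp in RXRKO and 564 bp in WT within the gene, and 797 bp and 327 bp upstream of its start. The lowest were Hnf4a with 2687 bp in RXRKO and 3443 bp in WT (-0.35), Nr2c2 with 3780 bp in RXRKO and 4041 bp in WT (-0.16) and Nr1h2 with 4289 bp in RXRKO and 4557 bp in WT (-0.15).

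**Figure D5:**
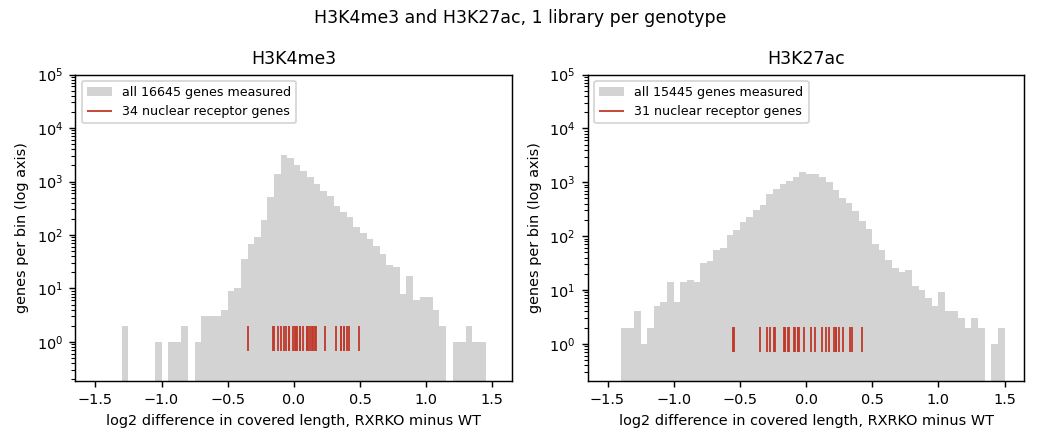
Log2 difference in covered length, RXRKO minus WT, for H3K4me3 (left) and H3K27ac (right), with 1 library per genotype. Grey bars count all genes measured on a log axis, and red lines mark the 34 and 31 nuclear receptor genes, which all lay between -0.55 and 0.49.

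The genes around these receptors were read from 4 lists, and the H3K4me1 test called 0 genes in each. The promoter counts below stand beside 65.6% of all genes with H3K4me3 and 56.2% with H3K27ac in both genotypes. Of 10 other nuclear receptors, 9 had H3K4me3 and 7 had H3K27ac at a promoter in both genotypes, with a median H3K4me1 log2 difference of -0.06. At an unadjusted limma p under 0.05, 2 of them (Rxrb and Rarb) were lower, against 2.74% of all genes. Rxrb is itself deleted in RXRKO, and whether the lost sequence lowers its covered length was not tested. Of 12 coregulators, which the receptors use to open or close chromatin, 12 had H3K4me3 and 11 had H3K27ac in both genotypes, with a median of 0.02. Of 15 clock genes, 14 had H3K4me3 and 10 had H3K27ac in both genotypes, with a median of 0.00. Of 20 target genes of the receptors, 14 had H3K4me3 and 11 had H3K27ac in both genotypes, and the median over the 19 tested was -0.09. Of these 19, 6 were above 0 and 13 below, and the 2 lowest were Pdk4 and Thrsp. Pdk4, a PPAR target that limits glucose oxidation, differed by -0.77 on the log2 scale (limma adjusted p = 0.135). Other PPAR targets on the list differed less, with Cpt1a at -0.04, Plin2 at -0.02, Cd36 at -0.04 and Angptl4 at -0.13. Thrsp, a thyroid hormone target in lipid synthesis, differed by -0.27 (limma adjusted p = 0.737), with an H3K4me3 promoter peak in RXRKO alone. The median over all genes tested was -0.004.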

How the data were processed

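The tools named per the submitters' processing notes are cutadapt 1.7.1 (read trimming), Bowtie2 2.2.5 (alignment, build mm10) and MACS3 (peak calling), and 1 list per library was deposited. Not given in the sources used here are the MACS3 version, any control library or spike-in, and what was done with duplicates, which decide how many peaks a list holds. In the deposited lists the score is 10 times the -log10 q cut to a whole number (at least 99.86% of peaks in every list). The authors' fold is peak height over local background, a ratio given per peak, and the -log10 p and -log10 q deposited with each peak come from the same caller. These values were used to rank or filter peaks within a list. The H3K27ac fold is also quoted for both genotypes at the starts of Rorb, Nr2c2, Nr2c1 and Esrra.

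From the lists, the bases under peaks were summed per gene window and library with Python 3.11.15, pandas 2.3.3 and numpy 2.4.6. H3K4me1 was tested with limma 3.58.1 in R 4.3.3 (lmFit and eBayes with trend) on log2 of the length plus 1000 bp, after a filter on a mean of 1000 bp, with a call at an adjusted p under 0.05. H3K4me3 and H3K27ac have 1 library per genotype and were described without a test. Gene positions, starts and sequences are RefSeq's (GRCm38.p6), on the 20 chromosomes analysed. The table of all genes gives no strand, so the promoter rule takes either gene end. No measured value was used to pick the members, but the members, lists and tests were chosen with earlier results of these data known. The genes given library by library were those with the 4 most positive and 4 most negative H3K4me1 differences, the 3 largest each way for H3K4me3 and H3K27ac, the 5 largest H3K27ac shares and those whose promoter call differed, and the regions were the 3 or 5 each way with the highest -log10 q. For H3K4me1, a run tag within each peak name is shared by the RXRKO and WT libraries of the same replicate number. The deviations of same-numbered libraries from their group means correlated at r = 0.21 (17756 genes, not independent of each other). The extraction text also names an H3K27me3 antibody, and that mark was not analysed here.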

Additional observations from a re-analysis of the deposited data

How the results depend on the processing

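With the replicate number as a block, 0 members were called, as without it, and the block changed no member's call (Thrb adjusted p = 0.077). Without the length filter 1 member (Thrb) was called, among 204 of 21627 genes. Leaving out 1 library at a time gave 0 to 1 members, the 1 being Thrb without WT replicate 1, where 77 of 17788 genes were called (98 genes and 0 members without RXRKO replicate 1). Of 112 values of single genes under other settings, 107 kept their direction and side of the threshold, 2 passed it (both Thrb) and 3 reversed: Pparg 0.022 and Esr1 0.004 with peaks of at least 4-fold, and Nr2c1 0.006 with a 5 kb flank. The 112 values belong only to the 4 members with the most positive and the 4 with the most negative H3K4me1 difference in the main fit. They were refitted to the same libraries. Genes picked for large differences tend to keep their direction, so the tally does not measure how stable the members are. The gene body alone, a setting chosen after seeing the data, called 0 members. Requiring at least 4-fold left 13 members with H3K27ac promoter calls in both genotypes, 1 in RXRKO alone (Rora) and 5 in WT alone (Nr0b2, Thrb, Pparg, Rorb and Nr2c2), and put 1 H3K4me3 call in WT alone (Nr2f1). An overlap of 200 bp gave 1 H3K27ac call in RXRKO alone (Nr3c2) and 0 in WT alone. A 2 kb promoter gave 0 H3K27ac calls in WT alone, and equal numbers of top peaks gave 0 H3K4me3 calls in RXRKO alone. The shares of all genes were not counted under these promoter settings, 4-fold among them. At the report's settings, 4.74% of all genes had an H3K27ac promoter call in WT alone and 1.33% in RXRKO alone. The 5 and 1 at 4-fold are therefore not read as particular to these members. H3K4me1 regions called in RXRKO and not WT numbered 4 at 4-fold (1.28%, against 1.26% of all regions), 11 at a -log10 q of 5 (1.82%, against 2.19%), 48 within replicate 1 (7.08%, against 6.81%), 99 within replicate 2 (14.6%, against 14.72%) and 28 to 76 with 1 library left out (4.13% to 11.21%, against 3.8% to 11.03%). Those called in WT and not RXRKO numbered 21 at 4-fold (6.73%, against 5.1%), 11 at a -log10 q of 5 (1.82%, against 1.67%), 56 within replicate 1 (8.26%, against 8.83%), 58 within replicate 2 (8.55%, against 9.0%) and 27 to 41 with 1 library left out (3.98% to 6.05%, against 3.53% to 6.83%). The report's settings gave 17 in each direction. Asking for fewer libraries lets more regions in by construction, and the cause of the other shifts was not tested. Peak calls hide changes in height within a peak, and with unknown depth a missing peak sets no bound on the mark.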
